A study of Mus musculus with 12 samples.

Results

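The enzymes that make serine and pass its carbon to folate, and the thymidylate synthase that uses it, were followed across 12 RNA sequencing libraries of T cells from the mouse central nervous system (CNS). They are 9 genes, chosen by name for their place in the pathway, of the 47359 gene rows measured: Phgdh, Psat1, Psph, Shmt1, Shmt2, Mthfd1, Mthfd1l, Mthfd2 and Tyms. All 9 had a row and passed the filter on low counts, which kept 21565 genes. The donor TH17 cells, a helper T cell type named for its cytokine IL-17, were labelled 2D2, a transgenic T cell receptor against a myelin protein. They had been transferred into RAG2-/- mice, which lack mature T and B cells. They were collected from the CNS at the height of experimental autoimmune encephalomyelitis, a disease used to model multiple sclerosis. The sort took 1000 living cells per library, either CXCR6+ or SLAMF6+. The 4 groups were 2D2-IL-17A/F-DKO CXCR6+ (donor cells lacking both Il17a and Il17f, double knockout or DKO; 1 library), 2D2-IL-17A/F-DKO SLAMF6+ (1 library), 2D2-WT CXCR6+ (5 libraries) and 2D2-WT SLAMF6+ (5 libraries). CXCR6 is a chemokine receptor and SLAMF6 a surface receptor of lymphocytes, used here to part the cells into subsets. The sources used here give no ages and do not say that replicates were separate mice. The p-values therefore cover the spread among these libraries and no more, which may be technical.

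Library totals ran from 6818658 to 11635037 counts. The targeted genes were near 0 in the DKO libraries: Il17a had 0 counts in CXCR6+ DKO and 3 in SLAMF6+ DKO, against 345 ± 104 CPM (counts scaled to the effective library size) in CXCR6+ WT and 339 ± 85.8 CPM in SLAMF6+ WT (SD, n = 5 each), and Il17f had 1 count in each DKO library. The libraries labelled DKO also stood apart in ways other than these genes. Trbv16, the receptor segment of the 2D2 beta chain, made up 9.96% of Trbv counts in CXCR6+ DKO and 6.51% in SLAMF6+ DKO, against 99.6 to 99.8% in the WT libraries, which goes against the 2D2 label of the DKO cells. Ddx3y, a gene of the Y chromosome, had 36.3 CPM in CXCR6+ DKO and 36.1 CPM in SLAMF6+ DKO and 0 CPM in every WT library. Haemoglobin genes took 11.9% of the counts of SLAMF6+ DKO and under 0.001% elsewhere. Sort genes differed too, with Cxcr6 at 382 CPM in CXCR6+ DKO and 162 CPM in SLAMF6+ DKO, against 26.3 ± 16.3 CPM in CXCR6+ WT and 16.1 ± 2.93 CPM in SLAMF6+ WT. Slamf6 was at 75.8 CPM in CXCR6+ DKO and 259 CPM in SLAMF6+ DKO, against 3.30 ± 1.46 CPM in CXCR6+ WT and 8.42 ± 2.25 CPM in SLAMF6+ WT. Between the WT subsets Slamf6 was lower in CXCR6+ cells (adjusted p = 0.0047 by edgeR), and the higher mean of Cxcr6 there did not pass (adjusted p = 0.251). With 1 DKO library per subset, genotype and any of these features cannot be told apart, and the test of a DKO library takes its spread from the WT libraries. T cell markers were present in all groups, with a summed level over 7 genes of 3800 CPM in CXCR6+ DKO, 4130 CPM in SLAMF6+ DKO, 3390 to 5210 CPM in CXCR6+ WT and 5270 to 6210 CPM in SLAMF6+ WT. Trac made up most of the WT sums, with means of 2610 CPM (CXCR6+) and 3944 CPM (SLAMF6+). It was lower in DKO, with 542.5 CPM for the CXCR6+ library and 728 CPM for the SLAMF6+ library. Cd3d, Cd3e, Cd3g and Lck went the other way, each above every WT library of its subset. Cd4 and Cd5 differed less. These sums therefore cannot show that T cell content was alike.

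Cells build serine from a glycolytic intermediate. PHGDH makes the first, oxidising step, PSAT1 transfers an amino group, and PSPH removes the phosphate. The hydroxymethyltransferases SHMT1, in the cytosol, and SHMT2, in mitochondria, split serine into glycine and a carbon unit carried by folate. MTHFD2 and MTHFD1L pass that unit on inside mitochondria and release it as formate, MTHFD1 handles it in the cytosol for purine synthesis, and TYMS uses it to make the thymidine nucleotide for DNA. Activated T cells are known to raise these enzymes as they prepare to divide, and the transcription factor ATF4, which answers amino acid shortage, is known to drive several of them.

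Per kilobase of exon, so that genes of unequal length can be set side by side, Phgdh led in every group. With the length of the longest transcript in place of all exons it led in all but CXCR6+ DKO, where Mthfd2 stood at 25.4 CPM per kilobase and Phgdh at 22.6. Per kilobase of exon, Phgdh stood at 17.2 CPM per kilobase in CXCR6+ DKO and 25.2 in SLAMF6+ DKO, against 65.2 ± 8.79 in CXCR6+ WT and 93.3 ± 7.43 in SLAMF6+ WT (SD, n = 5 each). Below Phgdh the order was not the same in the genotypes. Psat1 was 2nd of 9 in both WT subsets but 6th in both DKO libraries (5th in SLAMF6+ DKO by the longest transcript), at 4.73 CPM per kilobase in CXCR6+ DKO and 5.34 in SLAMF6+ DKO, against 34.0 ± 2.63 in CXCR6+ WT and 46.4 ± 4.05 in SLAMF6+ WT. Mthfd2 was 2nd in both DKO libraries on the exon scale, at 15.2 CPM per kilobase in CXCR6+ DKO and 19.5 in SLAMF6+ DKO, and 4th in both WT subsets (3rd in SLAMF6+ WT by the longest transcript) at 22.9 ± 2.56 in CXCR6+ WT and 33.0 ± 3.71 in SLAMF6+ WT. Shmt1 was last in both DKO libraries, at 0.834 CPM per kilobase in CXCR6+ DKO and 0.932 in SLAMF6+ DKO, while in WT it stood at 8.55 ± 2.24 in CXCR6+ cells and 10.03 ± 1.69 in SLAMF6+ cells. In WT, the ranges of Psat1 and Shmt2 overlapped, as did those of Shmt2 and Mthfd2, while Phgdh lay above Psat1, and Mthfd2 above Psph, in all 5 libraries of each subset with no overlap. From Tyms down to Mthfd1 neighbours overlapped in both WT subsets.

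**Figure D1:**
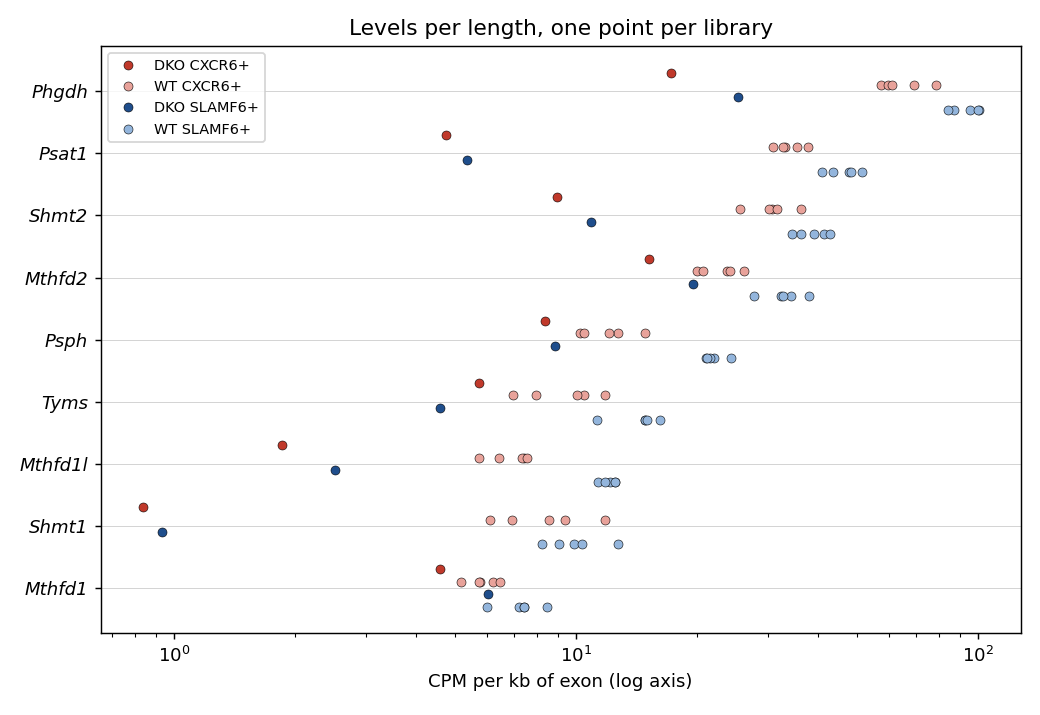
Levels of the 9 enzymes in CPM per kilobase of exon (log axis), 1 point per library, with colours for the 4 groups. Phgdh is highest in each group on this scale, though Mthfd2 is higher in CXCR6+ DKO by the longest transcript, and Psat1 and Shmt1 in the DKO libraries lie farthest to the left of their WT points.

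In CXCR6+ cells, 6 of the 9 enzymes fell in DKO relative to WT, none rose, and the DKO library lay below all 5 WT libraries for all 9. In SLAMF6+ cells 8 of 9 fell, none rose, and the DKO library lay below all WT libraries for 8. Many genes differed between these libraries. By the same test (edgeR's quasi-likelihood test, Benjamini-Hochberg adjusted p under 0.05), 28.7% of all genes tested were called in CXCR6+ cells, 15.9% of all as lower, and 31.1% in SLAMF6+ cells, 17.5% as lower. A DKO value below every WT value was found for 28.1% of all genes in CXCR6+ cells and 30.9% in SLAMF6+ cells. The median log2 fold change of the 9 enzymes was -1.78 in CXCR6+ cells and -1.83 in SLAMF6+ cells, against -0.22 and -0.05 over all genes tested. When only the 8114 genes of at least 10 CPM in 5 libraries were kept, their differences moved by a median of 0.30 in SLAMF6+ cells. Their median was then 0.06, so in the main fit such genes tended to lie below -0.05 there. In CXCR6+ cells the move was 0.03 and the median -0.03. Summed over the 9 genes, the CXCR6+ DKO library held 247 CPM and the SLAMF6+ DKO library 295 CPM, against 616 to 743 CPM in CXCR6+ WT and 872 to 1065 CPM in SLAMF6+ WT. With receptor, immunoglobulin, mitochondrial, ribosomal protein and haemoglobin genes left out, 6 and 8 enzymes were again called. These are bulk samples, in which fewer cells with a transcript and less of it per cell cannot be told apart.

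**Figure D2:**
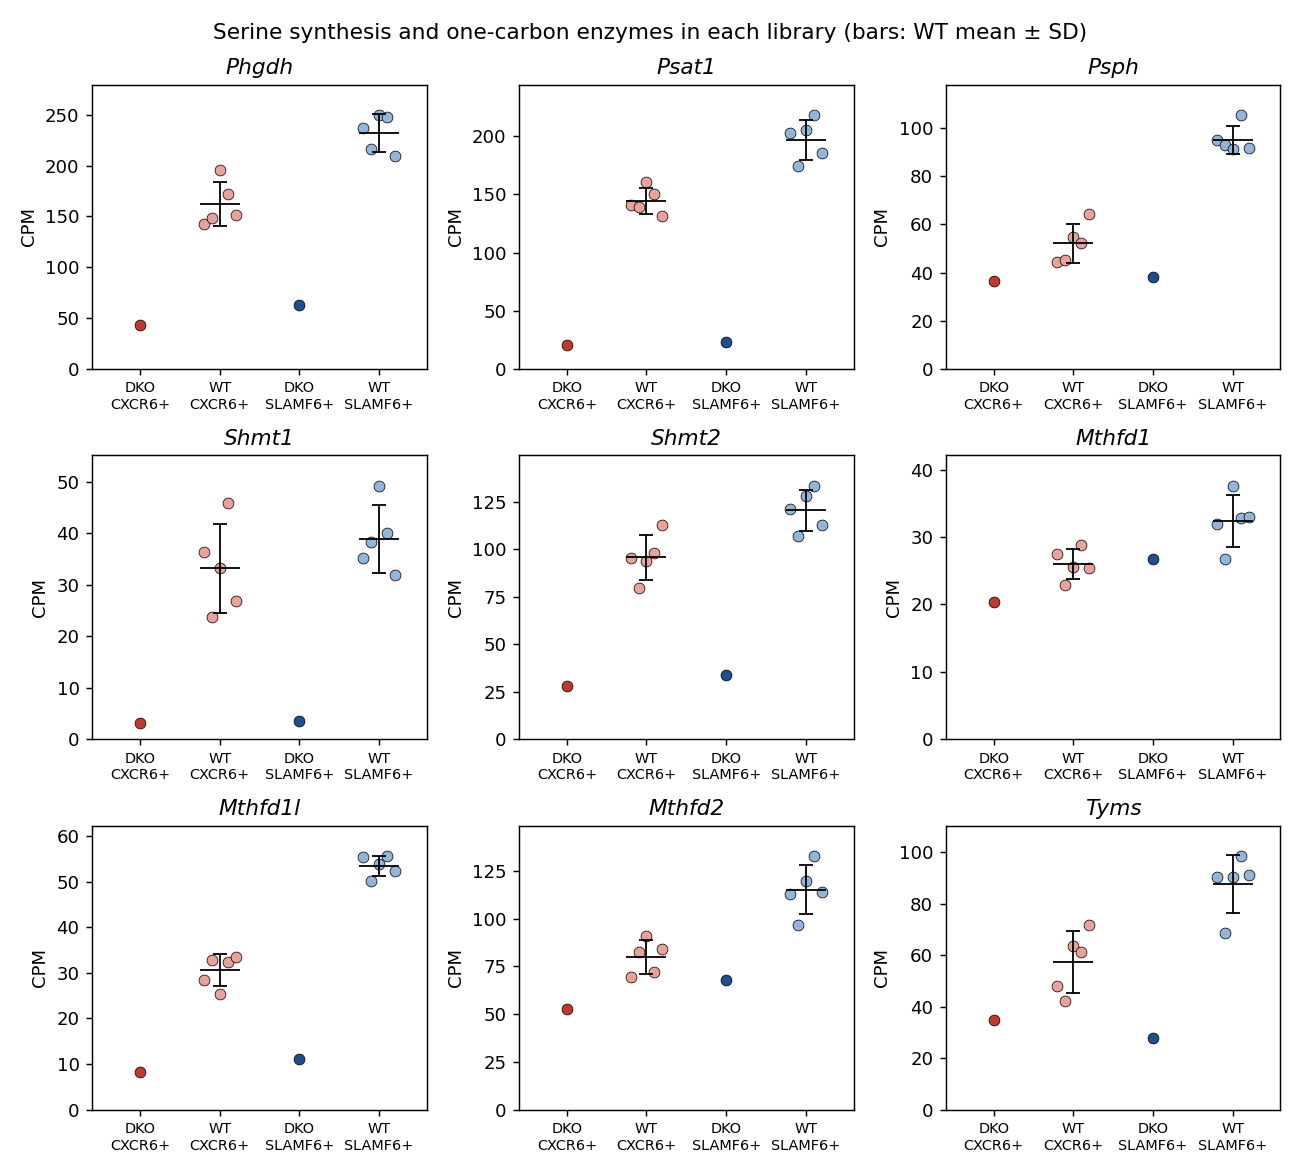
CPM of each enzyme in each library (vertical axes from 0), with DKO left of WT in each sorted subset and bars for the WT mean ± SD (n = 5). The DKO points lie below every WT point of their subset in 17 of 18 cases, the exception being Mthfd1 in SLAMF6+ cells.

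Among the 3 serine synthesis genes, Psat1 changed most. Psat1 (chromosome 19, 15904678 to 15947337, minus strand, GRCm38) had 20.1 CPM in CXCR6+ DKO, against 141, 139, 160.5, 150.3 and 131 CPM in CXCR6+ WT replicates 1 to 5. In SLAMF6+ cells it had 22.7 CPM in DKO, against 203, 174, 205, 218 and 186 CPM in WT replicates 1 to 5. The DKO values lay far below the WT ranges and close to each other. Psat1 fell 7.18-fold in CXCR6+ cells (log2 -2.84, standard error 0.17, adjusted p = 7.18e-07 by edgeR) and 8.67-fold in SLAMF6+ cells (log2 -3.12, standard error 0.17, adjusted p = 4.71e-07).

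Phgdh, the entry enzyme (chromosome 3, 98313170 to 98339990, minus strand), had 42.8 CPM in CXCR6+ DKO, against 142.5, 148, 195.5, 172 and 152 CPM in CXCR6+ WT replicates 1 to 5. Its level was 62.7 CPM in SLAMF6+ DKO, against 237, 216.5, 249.5, 248 and 209 CPM in SLAMF6+ WT replicates 1 to 5. Every WT library lay well above the DKO library of its subset. The fall was 3.79-fold in CXCR6+ cells (log2 -1.92, standard error 0.19, adjusted p = 2.52e-05 by edgeR) and 3.70-fold in SLAMF6+ cells (log2 -1.89, standard error 0.19, adjusted p = 2.79e-05).

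Psph, the last step (chromosome 5, 129765558 to 129787449, minus strand), moved less. It had 36.3 CPM in CXCR6+ DKO, against 44.3, 45.3, 54.8, 52.3 and 64.3 CPM in CXCR6+ WT replicates 1 to 5. In SLAMF6+ cells it had 38.2 CPM in DKO, against 95.1, 93.1, 91.1, 105 and 91.7 CPM in WT replicates 1 to 5. The CXCR6+ DKO value lay just under the WT range, and the SLAMF6+ DKO value well under it. Psph fell 2.49-fold in SLAMF6+ cells (log2 -1.32, standard error 0.20, adjusted p = 0.000408 by edgeR), while in CXCR6+ cells its log2 difference of -0.52 did not pass (standard error 0.18, adjusted p = 0.0547). Exons of Psph overlap those of Cct6a, a chaperonin gene on the opposite strand, and these libraries do not mark the strand. Cct6a stood at 437 CPM in CXCR6+ DKO and 426 CPM in SLAMF6+ DKO, against 172 ± 17.8 CPM in CXCR6+ WT and 244 ± 21.8 CPM in SLAMF6+ WT, and its part in the Psph counts was not tested.

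The cytosolic hydroxymethyltransferase Shmt1 (chromosome 11, 60788104 to 60811718, minus strand) had the steepest fall of the 9. It had 28 counts (3.24 CPM) in CXCR6+ DKO, against 36.3, 23.7, 33.2, 45.9 and 26.9 CPM in CXCR6+ WT replicates 1 to 5. In SLAMF6+ DKO it had 25 counts (3.62 CPM), against 35.2, 38.3, 49.2, 40.1 and 31.9 CPM in SLAMF6+ WT replicates 1 to 5. For their mean, WT levels of Shmt1 spread more between replicates than those of the other enzymes, yet no WT library came near a DKO value. The fall was 10.2-fold in CXCR6+ cells (log2 -3.35, standard error 0.42, adjusted p = 0.000129 by edgeR) and 10.7-fold in SLAMF6+ cells (log2 -3.42, standard error 0.42, adjusted p = 0.000124). Smcr8 overlaps Shmt1 on the opposite strand and stood at 8.09 CPM in CXCR6+ DKO, 8.98 CPM in SLAMF6+ DKO, against 8.41 ± 1.84 CPM in CXCR6+ WT and 6.73 ± 1.49 CPM in SLAMF6+ WT, above Shmt1 in the DKO libraries and below it in WT, and its part in the Shmt1 counts was not tested.

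Mitochondrial Shmt2 (chromosome 10, 127517123 to 127522444, minus strand) had 27.9 CPM in CXCR6+ DKO, against 95.3, 79.5, 93.6, 98.0 and 112.5 CPM in CXCR6+ WT replicates 1 to 5. It had 33.9 CPM in SLAMF6+ DKO, against 121, 107, 128, 133 and 113 CPM in SLAMF6+ WT replicates 1 to 5. No DKO value reached the WT range. Shmt2 fell 3.44-fold in CXCR6+ cells (log2 -1.78, standard error 0.19, adjusted p = 4.09e-05 by edgeR) and 3.56-fold in SLAMF6+ cells (log2 -1.83, standard error 0.19, adjusted p = 3.57e-05).

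Of the folate enzymes, Mthfd1l, the mitochondrial formate-releasing enzyme (chromosome 10, 3973118 to 4167081, plus strand), fell with Phgdh and Shmt2. It had 8.21 CPM in CXCR6+ DKO, against 28.5, 32.9, 25.4, 32.5 and 33.5 CPM in CXCR6+ WT replicates 1 to 5. In SLAMF6+ cells it had 11.2 CPM in DKO, against 55.3, 50.1, 53.9, 55.5 and 52.2 CPM in WT replicates 1 to 5. For their mean, its WT values were the tightest of the 9 in SLAMF6+ cells, and the DKO value lay far outside them. The fall was 3.72-fold in CXCR6+ cells (log2 -1.89, standard error 0.18, adjusted p = 1.61e-05 by edgeR) and 4.79-fold in SLAMF6+ cells (log2 -2.26, standard error 0.18, adjusted p = 5.87e-06).

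Mthfd2, the mitochondrial dehydrogenase and cyclohydrolase (chromosome 6, 83305691 to 83325908, minus strand), fell much less. It had 53.0 CPM in CXCR6+ DKO, against 69.5, 82.5, 90.9, 72.0 and 84.4 CPM in CXCR6+ WT replicates 1 to 5, and 68.1 CPM in SLAMF6+ DKO, against 113, 96.7, 119.5, 133 and 114 CPM in SLAMF6+ WT replicates 1 to 5. Both DKO values lay below their WT ranges without a wide gap. The fall was 1.51-fold in CXCR6+ cells (log2 -0.59, standard error 0.18, adjusted p = 0.0288 by edgeR) and 1.69-fold in SLAMF6+ cells (log2 -0.76, standard error 0.18, adjusted p = 0.00821). In CXCR6+ cells this call was lost by edgeR without replicate 3 of both WT subsets (adjusted p = 0.0534), without replicate 5 (0.0641), with no filter on low counts (0.0538) and in a fit of the compared groups alone (0.0646), and in SLAMF6+ cells it was lost within the libraries that listed the mitochondrial transfer RNA gene mt-Ts1 with counts (0.0844), where 1 DKO library stands against 1 WT library.

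Cytosolic Mthfd1 (chromosome 12, 76255298 to 76319803, plus strand) was the enzyme with the smallest difference. It had 20.4 CPM in CXCR6+ DKO, against 27.5, 22.9, 25.6, 28.8 and 25.4 CPM in CXCR6+ WT replicates 1 to 5. It had 26.8 CPM in SLAMF6+ DKO, against 32.0, 26.7, 37.6, 32.9 and 32.9 CPM in SLAMF6+ WT replicates 1 to 5. The CXCR6+ DKO value was just below its WT range, and the SLAMF6+ DKO value lay at the foot of its WT range. Neither difference passed the test (log2 -0.36, standard error 0.18, adjusted p = 0.18 in CXCR6+ cells; log2 -0.28, standard error 0.18, adjusted p = 0.284 in SLAMF6+ cells, by edgeR). The sign of the SLAMF6+ difference turned, to 0.02, when only genes of at least 10 CPM in 5 libraries were kept.

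Tyms, thymidylate synthase (chromosome 5, 30058202 to 30073617, minus strand), had 34.9 CPM in CXCR6+ DKO, against 48.3, 42.4, 63.5, 61.3 and 71.6 CPM in CXCR6+ WT replicates 1 to 5. In SLAMF6+ DKO it had 28.0 CPM, against 90.5, 68.7, 90.3, 98.5 and 91.3 CPM in SLAMF6+ WT replicates 1 to 5. The DKO libraries were below all WT libraries of their subset, with a wide gap in SLAMF6+ cells alone. Tyms fell 3.14-fold in SLAMF6+ cells (log2 -1.65, standard error 0.29, adjusted p = 0.00134 by edgeR), and in CXCR6+ cells its log2 difference of -0.72 did not pass (standard error 0.27, adjusted p = 0.0726).

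**Figure D3:**
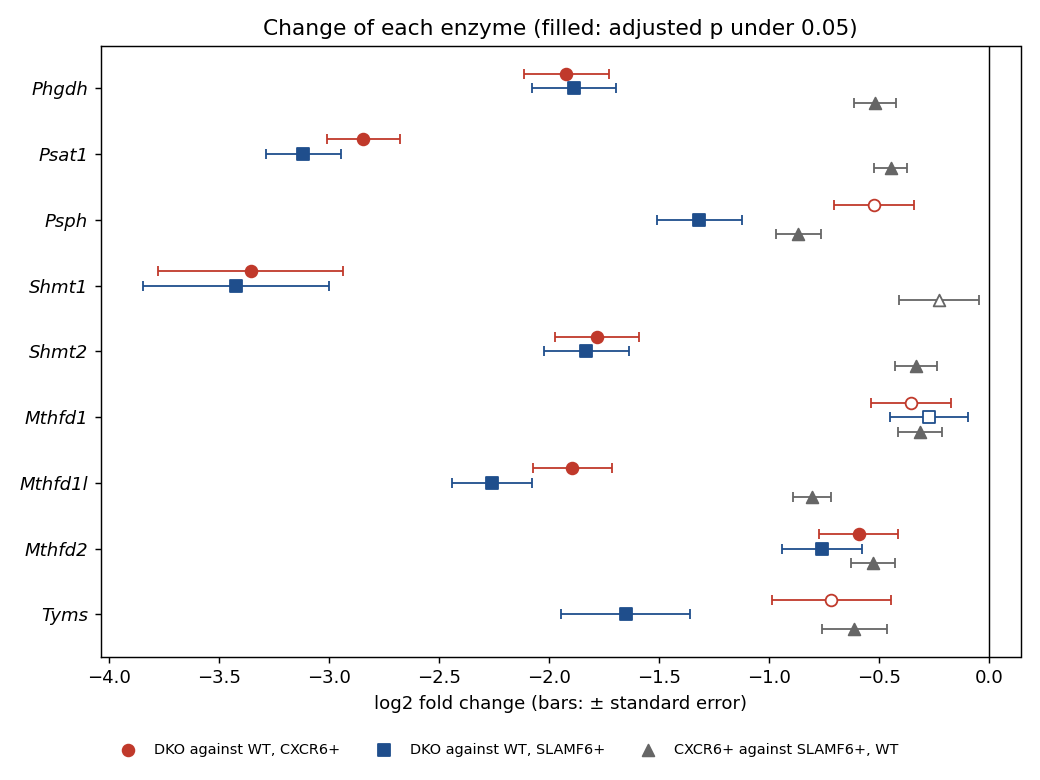
Log2 fold change of each enzyme with its standard error, for DKO against WT in CXCR6+ cells (circles), DKO against WT in SLAMF6+ cells (squares) and CXCR6+ against SLAMF6+ in WT (triangles). Filled symbols passed an adjusted p under 0.05: 6, 8 and 8 of the 9 enzymes, with Mthfd1 open in both DKO comparisons; the open Shmt1 triangle lay at -0.23, and at 0.03 when only genes of at least 10 CPM in 5 libraries were kept, a filter under which the open Mthfd1 square lay at 0.02 rather than at -0.28.

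The balance between enzymes that catalyse the same step in different compartments also differed between the genotypes. Shmt2 exceeded Shmt1, per length, 10.8-fold in CXCR6+ DKO (95% interval of counting error 7.25 to 16.5) and 11.7-fold in SLAMF6+ DKO (7.72 to 18.4). In WT the ratio was 3.77 ± 0.976 in CXCR6+ cells (range 2.67 to 5.22) and 3.92 ± 0.518 in SLAMF6+ cells (range 3.25 to 4.41). The mitochondrial form thus made up more of the pair in both DKO libraries than in any of the 10 WT libraries. Mthfd1l moved the other way against its cytosolic counterpart: its ratio to Mthfd1 was 0.404 in CXCR6+ DKO (0.302 to 0.535) and 0.417 in SLAMF6+ DKO (0.315 to 0.547), against 1.18 ± 0.189 in CXCR6+ WT and 1.67 ± 0.166 in SLAMF6+ WT, with all WT libraries at 0.993 or above. The ratio of Mthfd2 to Mthfd1 differed less, at 3.32 in CXCR6+ DKO (2.78 to 3.97), 3.24 in SLAMF6+ DKO (2.72 to 3.86), 3.95 ± 0.694 in CXCR6+ WT and 4.55 ± 0.395 in SLAMF6+ WT; in CXCR6+ cells the DKO value lay within the WT range of 3.19 to 4.58. With the length of the longest transcript in place of all exons, these ratios were 4.05 in CXCR6+ DKO, 3.95 in SLAMF6+ DKO, 4.82 in CXCR6+ WT and 5.55 in SLAMF6+ WT. Within serine synthesis, Psat1 stood below Psph in DKO, at a ratio of 0.564 in CXCR6+ cells (0.466 to 0.681) and 0.605 in SLAMF6+ cells (0.494 to 0.740), while in WT it stood above Psph at 2.87 ± 0.458 in CXCR6+ cells and 2.11 ± 0.142 in SLAMF6+ cells. These ratios were not tested. Nor was the part that the overlapping genes Cct6a and Smcr8 may have in the Psph and Shmt1 counts behind them.

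**Figure D4:**
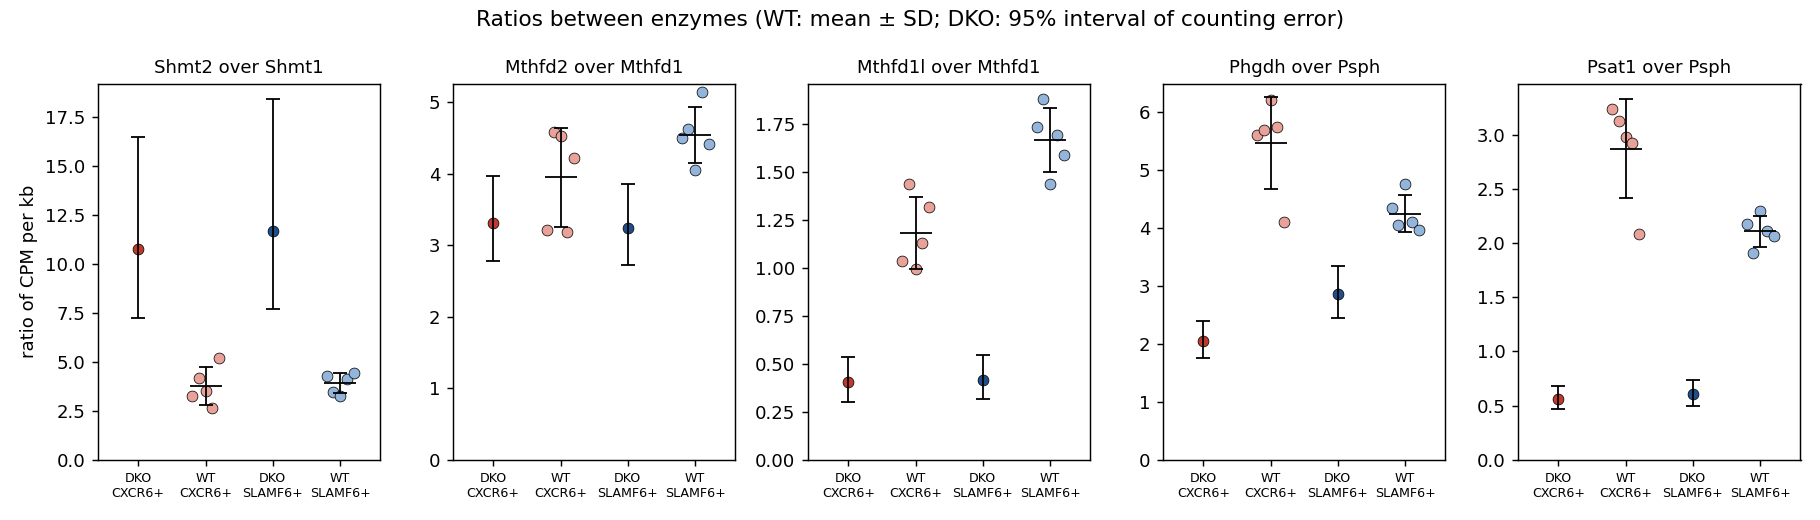
Ratios of CPM per kilobase between pairs of enzymes, 1 point per library, with DKO left of WT in each sorted subset. Bars are 95% intervals of counting error for the DKO libraries and mean ± SD for WT (n = 5). Shmt2 over Shmt1 is higher, and Mthfd1l over Mthfd1 and Psat1 over Psph are lower, in both DKO libraries than in every WT library. The part of genes that overlap Psph and Shmt1 was not tested.

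The promoters of Shmt1, Psat1 and Phgdh, which fell several-fold, and of Mthfd2, which fell little, are shown as examples, since the genes moved in one direction by unequal amounts. They come from RefSeq (GRCm38.p6), run from 250 bases before to 50 bases after the start of transcription, and are written 5′ to 3′ on the strand of the gene. Capitals mark CCAAT (or its reverse complement ATTGG) and GGGCGG (or CCGCCC), the letters bound by the factors NF-Y and SP1.
Shmt1, chr11:60811216-60811515, minus strand: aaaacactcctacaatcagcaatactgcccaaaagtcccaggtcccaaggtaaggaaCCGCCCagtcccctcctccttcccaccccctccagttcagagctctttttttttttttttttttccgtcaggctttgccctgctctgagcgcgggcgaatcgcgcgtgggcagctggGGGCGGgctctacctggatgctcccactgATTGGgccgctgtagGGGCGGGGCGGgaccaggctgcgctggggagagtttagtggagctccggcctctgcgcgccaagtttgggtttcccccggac
Psat1, chr19:15925010-15925309, minus strand: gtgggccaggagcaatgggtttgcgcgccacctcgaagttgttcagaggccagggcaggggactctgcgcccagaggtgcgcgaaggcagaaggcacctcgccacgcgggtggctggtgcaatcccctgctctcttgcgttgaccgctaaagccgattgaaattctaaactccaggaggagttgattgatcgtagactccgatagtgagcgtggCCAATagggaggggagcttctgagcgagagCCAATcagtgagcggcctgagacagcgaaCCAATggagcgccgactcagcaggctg
Phgdh, chr3:98339920-98340219, minus strand: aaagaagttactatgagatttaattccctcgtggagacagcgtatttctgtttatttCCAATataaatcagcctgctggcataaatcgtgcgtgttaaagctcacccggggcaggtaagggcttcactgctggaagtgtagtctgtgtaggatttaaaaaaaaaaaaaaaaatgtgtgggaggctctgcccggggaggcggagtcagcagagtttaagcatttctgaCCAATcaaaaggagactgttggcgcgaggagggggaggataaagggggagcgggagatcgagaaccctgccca
Mthfd2, chr6:83317555-83317854, minus strand: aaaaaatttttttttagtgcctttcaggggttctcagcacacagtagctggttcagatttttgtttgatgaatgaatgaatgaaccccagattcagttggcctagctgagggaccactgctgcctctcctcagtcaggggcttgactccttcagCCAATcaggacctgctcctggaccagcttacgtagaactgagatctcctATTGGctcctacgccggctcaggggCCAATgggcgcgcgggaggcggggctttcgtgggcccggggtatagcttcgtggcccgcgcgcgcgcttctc
All 9 genes had a window, and Psat1 had 2, of which the upstream one is printed. CCAAT was in 6 of the 10 windows, against 37.4% of the 32851 RefSeq windows of the same length, and GGGCGG was in 6 of 10, against 35.7% of all. CCAAT was found in 3 places each in the printed Psat1 window and in that of Mthfd2, in 2 places in that of Phgdh and in 1 place in that of Shmt1. It was also in the windows of Psph and Mthfd1, and not in those of Mthfd1l, Shmt2 and Tyms. TGATGNAA, a core of the ATF4 response element, was in 0 of the 10 windows and 3.97% of all. CACGTG, the E-box that MYC binds, was in the Tyms window alone, against 7.15% of all. TTTGGCGC and TTTCGCGC, the letters of E2F sites, were in 0 of 10, against 0.514% and 0.323% of all. Both strands were searched, and a match is only a description of the letters.

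Within WT, 8 of the 9 enzymes were lower in CXCR6+ cells than in SLAMF6+ cells, and Shmt1 did not pass. The background was again high, with 33.3% of all genes called and 17.7% called as lower. All 5 CXCR6+ libraries lay below all 5 SLAMF6+ libraries for Phgdh, Psat1, Psph, Mthfd1l and Mthfd2, 5 of 9 enzymes, against 15.0% of all genes. The median log2 of the 9 was -0.52, against 0.13 over all genes, and none of the differences reached 2-fold. When only the 8114 genes of at least 10 CPM in 5 libraries were kept, their differences moved by a median of 0.26. Their median was then 0.02, so in the main fit such genes tended to lie below 0.13, on the side of the enzymes. Psph and Mthfd1l differed most: Psph averaged 52.2 ± 8.10 CPM in CXCR6+ and 95.3 ± 5.83 CPM in SLAMF6+ cells (log2 -0.87, standard error 0.10, adjusted p = 6.82e-05 by edgeR), and Mthfd1l averaged 30.5 ± 3.50 CPM in CXCR6+ and 53.4 ± 2.28 CPM in SLAMF6+ cells (log2 -0.81, standard error 0.09, adjusted p = 3.78e-05). Next came Tyms (57.4 ± 11.9 CPM in CXCR6+, 87.9 ± 11.3 CPM in SLAMF6+; log2 -0.61, adjusted p = 0.00769), Mthfd2 (log2 -0.53, adjusted p = 0.00165), Phgdh (162 ± 21.8 CPM in CXCR6+, 232 ± 18.5 CPM in SLAMF6+; log2 -0.52, adjusted p = 0.00146) and Psat1 (log2 -0.45, adjusted p = 0.000907). Shmt2 (log2 -0.33, adjusted p = 0.0194) and Mthfd1 (log2 -0.32, adjusted p = 0.0324) passed narrowly, and Shmt1 had a log2 difference of -0.23 (adjusted p = 0.35), which was 0.03 when only genes of at least 10 CPM in 5 libraries were kept.

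The WT subsets also differed in the make-up of their counts. Mitochondrial genes took 12.9 to 17.6% in CXCR6+ WT and 2.20 to 5.24% in SLAMF6+ WT, and ribosomal protein genes 10.6 to 12.2% in CXCR6+ WT and 21.5 to 22.8% in SLAMF6+ WT. The gene mt-Ts1 had counts in both DKO libraries, in 4 of 5 CXCR6+ WT libraries (not replicate 1) and in 1 of 5 SLAMF6+ WT libraries (replicate 2), and was listed at 0 in the other 5. With a term for this split, 5 enzymes were called lower in WT (Phgdh, Psat1, Psph, Mthfd1l and Mthfd2), against 13.4% of all genes. Within the libraries with mt-Ts1 at 0 (1 CXCR6+ and 4 SLAMF6+) 6 were called lower, against 9.41% of all genes. Within those with counts (4 CXCR6+ and 1 SLAMF6+) 2 were, Psph and Mthfd1l, against 7.39% of all. The lone library on one side is assumed there to vary like the others. Between genotypes in CXCR6+ cells, within the libraries with mt-Ts1 counts (1 DKO and 4 WT), 8 enzymes fell, against 15.3% of all genes.

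Whether the genotype difference depended on the subset was tested as an interaction, in which 10.3% of all genes were called. By edgeR 0 of the 9 enzymes passed, with 2 at an unadjusted p under 0.05, and by DESeq2's Wald test and limma-voom 0 passed as well; over all genes, 5013 of 21565 had an unadjusted p under 0.05. The largest values were those of Tyms (log2 0.94, standard error 0.37, adjusted p = 0.15 by edgeR) and Psph (log2 0.79, standard error 0.25, adjusted p = 0.0755), both positive, that is a smaller fall in CXCR6+ cells. Without CXCR6+ WT replicate 5, and without replicate 5 of both WT subsets, Psph passed (adjusted p = 0.0216 and 0.0344). Between the DKO libraries themselves, with 1 on each side and no test, Tyms was the one enzyme higher in CXCR6+ (ratio 1.25, 95% interval of counting error 1.04 to 1.5). Phgdh was lower there (0.682, 0.592 to 0.786), as were Mthfd2 (0.778, 0.683 to 0.887), Mthfd1 (0.760, 0.614 to 0.939) and Shmt2 (0.822, 0.684 to 0.989), and the intervals of the other 4 enzymes included 1.

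Genes that act next to these enzymes were read from 7 lists. Beside the counts below, 12.8% of all genes were called higher and 15.9% lower in CXCR6+ DKO cells, 13.5% higher and 17.5% lower in SLAMF6+ DKO cells, and 15.6% higher and 17.7% lower in CXCR6+ cells of WT. ATF4 and its amino acid response targets moved in one direction in DKO: all 10 tested members fell in CXCR6+ cells and all 10 in SLAMF6+ cells, with median log2 fold changes of -1.95 and -1.84 against -0.22 and -0.05 over all genes. In CXCR6+ cells the count was 6 when at least a 2-fold change was also asked. Atf4 itself had 80.7 CPM in CXCR6+ DKO and 80.5 CPM in SLAMF6+ DKO, against 159 ± 16.9 CPM in CXCR6+ WT and 207 ± 14.6 CPM in SLAMF6+ WT (adjusted p = 0.000657 and 7.98e-05 by edgeR). Asns, which makes asparagine, had 7.86 CPM in CXCR6+ DKO and 4.34 CPM in SLAMF6+ DKO, against 57.5 ± 8.42 CPM in CXCR6+ WT and 92.6 ± 9.53 CPM in SLAMF6+ WT, that is 7.31-fold and 21.3-fold lower in mean CPM (95% exact Poisson intervals 5.77 to 9.41 and 14.9 to 31.6). Trib3, an inhibitor of ATF4 activity, had 13 counts in CXCR6+ DKO and 8 in SLAMF6+ DKO in all, against 18.6 ± 3.03 CPM in CXCR6+ WT and 31.4 ± 3.68 CPM in SLAMF6+ WT. Sars, the seryl transfer RNA synthetase, fell with a log2 fold change of -0.64 in CXCR6+ cells and -1.47 in SLAMF6+ cells (adjusted p = 0.00159 and 8.34e-06). Slc7a11 and Cebpb of this list did not pass the filter. In WT, 6 of the 10 were lower in CXCR6+ cells and none higher, with a median log2 of -0.33; when only genes of at least 10 CPM in 5 libraries were kept, 3 were lower and 2 higher, within the libraries with mt-Ts1 counts 1 was lower, and at 2-fold none was.

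**Figure D5:**
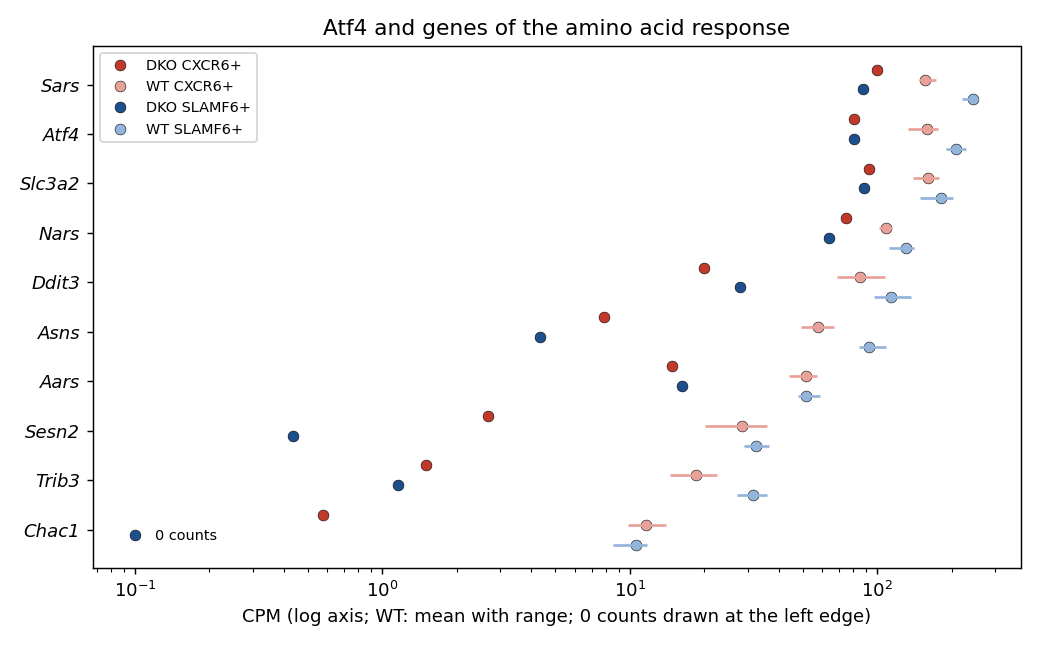
CPM (log axis) of the 10 tested members of the ATF4 list, with the value of each DKO library and the mean and range of each WT subset. Every DKO point lies left of the WT range of its subset; Chac1 had 0 counts in SLAMF6+ DKO.

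The genes that use serine and glycine gave a mixed picture, with 5 of 10 lower and 1 higher in CXCR6+ DKO cells and 4 lower and none higher in SLAMF6+ DKO cells. Sfxn1, the mitochondrial serine carrier, fell in both (log2 -0.47, adjusted p = 0.0292 in CXCR6+ cells; log2 -0.89, adjusted p = 0.000914 in SLAMF6+ cells, by edgeR). Sptlc1, which draws serine into sphingolipids, rose in CXCR6+ DKO cells (log2 0.66, adjusted p = 0.00896) and did not pass in SLAMF6+ DKO cells (log2 -0.11, adjusted p = 0.652), where 3 alternatives turned its sign. Srr, serine racemase, did not pass in either, and Amt of the glycine cleavage system fell in both from a low level. Cth, which makes cysteine from cystathionine, is named here after its values were seen: it had 2 counts in each DKO library, against 29.5 ± 6.30 CPM in CXCR6+ WT and 30.4 ± 6.37 CPM in SLAMF6+ WT. Its level was 128-fold lower in CXCR6+ DKO (95% exact Poisson interval 35.4 to 1060) and 105-fold lower in SLAMF6+ DKO (29.1 to 867). The median log2 of this list was -0.52 in CXCR6+ cells and -1.01 in SLAMF6+ cells. In WT, 3 of 10 were lower in CXCR6+ cells and 1 higher.

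Folate transport, the remaining folate enzymes and the methionine cycle split in both directions, with 5 of 17 higher and 5 lower in CXCR6+ DKO cells and 3 higher and 8 lower in SLAMF6+ DKO cells. The medians were -0.50 and -1.02 (-0.995 with Mthfd2l, which had 0 counts in SLAMF6+ DKO, at its bound of 3 counts). Mat2b, a regulatory subunit of the enzyme that makes S-adenosylmethionine, rose in DKO, to 93.3 CPM in CXCR6+ and 93.6 CPM in SLAMF6+ cells, against 33.6 ± 5.28 CPM in CXCR6+ WT and 58.5 ± 2.60 CPM in SLAMF6+ WT (adjusted p = 3.42e-05 and 0.00838 by edgeR). Ahcy passed narrowly in SLAMF6+ cells (log2 -0.67, adjusted p = 0.0337), in 11 of 20 alternatives, and not in CXCR6+ cells (log2 -0.50, adjusted p = 0.105), and these differences did not differ detectably (interaction log2 0.17, adjusted p = 0.849). Slc25a32, the mitochondrial folate carrier, rose in CXCR6+ DKO cells (log2 1.09, adjusted p = 0.0258), with a log2 difference of -0.15 in SLAMF6+ cells that did not pass and was 0.15 when only genes of at least 10 CPM in 5 libraries were kept. In WT, 4 of 17 were lower in CXCR6+ cells and 3 higher.

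Of 8 genes of purine synthesis, the pathway that takes folate carbon in the cytosol, 4 fell and none rose in CXCR6+ DKO cells, and 5 fell and none rose in SLAMF6+ DKO cells (medians -0.31 and -0.93). Paics fell by 0.47 on the log2 scale in CXCR6+ cells and by 1.56 in SLAMF6+ cells (adjusted p = 0.0417 and 4.57e-05 by edgeR), Prps1 by 1.10 and 2.03, and Pfas by 1.53 and 1.02, while Prps2 passed in neither subset. In WT, 5 of the 8 were lower in CXCR6+ cells and 1, Pfas, was higher. Of 10 genes of thymidylate and deoxynucleotide supply, 5 fell and 4 rose in CXCR6+ DKO cells, and 5 fell and 1 rose in SLAMF6+ DKO cells (medians -0.54 and -0.81). Rrm2, a subunit of ribonucleotide reductase, fell in both (log2 -1.26 and -3.08, adjusted p = 0.00177 and 1.02e-05), as did Dut (log2 -0.95 and -1.57), whereas Dck and Samhd1 rose in CXCR6+ DKO cells (log2 1.32 and 0.68). In WT, 4 of the 10 were lower in CXCR6+ cells and none higher.

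Of 12 S-phase genes, 8 fell and none rose in CXCR6+ DKO cells, and 9 fell and none rose in SLAMF6+ DKO cells (medians -0.83 and -1.37). In CXCR6+ cells the count was 4 in a fit of the compared groups alone, and 4 when at least a 2-fold change was also asked. Mcm6, a subunit of the replicative helicase, fell by 0.89 on the log2 scale in CXCR6+ cells and by 2.25 in SLAMF6+ cells (adjusted p = 0.00223 and 7.92e-06 by edgeR), and Mcm4 and Mcm5 fell in both. Pcna fell in SLAMF6+ cells (log2 -0.84, adjusted p = 0.000462) and had a log2 difference of -0.04 in CXCR6+ cells. In WT, 7 of the 12 were lower in CXCR6+ cells and none higher, but 4 within the libraries with mt-Ts1 at 0, 2 within those with counts and 0 at 2-fold; the WT difference of Pcna (log2 -0.52) was 0.06 with offsets for GC content and length. Of 9 MYC and mTORC1 genes, 3 rose and 4 fell in DKO in each subset (medians -0.18 and 0.51). Rptor rose in both (log2 1.16 and 1.94), and the amino acid transporter Slc7a5 fell in both (log2 -2.69 and -2.49); Slc1a5 rose in SLAMF6+ DKO cells (log2 0.62, adjusted p = 0.0153), and Mycn had 0 counts in CXCR6+ DKO. Myc, named after its values were seen, had 43.5 CPM in CXCR6+ DKO and 55.0 CPM in SLAMF6+ DKO, against 173 ± 28.7 CPM in CXCR6+ WT and 205 ± 24.2 CPM in SLAMF6+ WT (adjusted p = 0.000107 and 0.000149). In WT, 3 of the 9 were higher in CXCR6+ cells and 2 lower.

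Markers of other cells were read beside these results, since astrocytes are a known site of PHGDH in the brain. The summed level of 7 astrocyte genes was 3.58 CPM in CXCR6+ DKO and 2.32 CPM in SLAMF6+ DKO, against 81.9 to 110 CPM in CXCR6+ WT and 198 to 227 CPM in SLAMF6+ WT, so it moved in the same direction as Phgdh. Most of it was Aldoc (2.43 CPM in CXCR6+ DKO, 0.145 CPM in SLAMF6+ DKO, 45.4 to 67.1 CPM in CXCR6+ WT and 126 to 143 CPM in SLAMF6+ WT) and Gja1 (0.462, 1.16, 38.4 and 72.0 CPM on average in the same order of groups), both also expressed outside astrocytes. Slc1a2, an astrocyte glutamate transporter, had 0 counts in both DKO libraries, against 3.57 ± 0.974 CPM in CXCR6+ WT and 4.25 ± 1.41 CPM in SLAMF6+ WT, and was called lower in both (adjusted p = 0.000354 and 0.000371 by edgeR). The defining marker Gfap was at 0 in both DKO libraries and all SLAMF6+ WT libraries and at 0.0927 CPM on average in CXCR6+ WT, and Aqp4 stayed under 1 CPM in every group on average. Of 6 oligodendrocyte genes, the sum was 250 CPM in CXCR6+ DKO and 234 CPM in SLAMF6+ DKO, against 65.5 to 75.0 CPM in CXCR6+ WT and 123 to 149 CPM in SLAMF6+ WT, nearly all of it Cnp and Mbp, with Mag at 0 in both DKO libraries. The sum of 8 microglia and myeloid genes was 18.3 CPM in CXCR6+ DKO and 32.6 CPM in SLAMF6+ DKO, against 2.06 to 7.79 CPM in CXCR6+ WT and 15.1 to 22.6 CPM in SLAMF6+ WT. It hid moves in both directions. Most of the SLAMF6+ WT sum was Tmem119, at 18.01 ± 3.42 CPM, against 0.434 CPM in SLAMF6+ DKO. P2ry12 had 0 counts in both DKO libraries. In SLAMF6+ DKO, Csf1r (13.03 CPM), C1qa (8.69 CPM), C1qb, Cx3cr1, Itgam and Lyz2 stood above every SLAMF6+ WT library. In CXCR6+ DKO, Lyz2 had 10.4 CPM, against 0.0223 CPM on average in CXCR6+ WT, while C1qa and C1qb had 0 counts. The sum of 6 B cell and dendritic cell genes was 62.1 CPM in CXCR6+ DKO and 369 CPM in SLAMF6+ DKO, against 30.1 to 36.9 CPM in CXCR6+ WT and 69.9 to 113 CPM in SLAMF6+ WT, most of it Cd74. The 3 endothelial genes summed to at most 37.5 CPM and the 3 neuronal genes to at most 3.02 CPM in any library. The 7 TH17 genes summed to 159 CPM in CXCR6+ DKO and 128 CPM in SLAMF6+ DKO. Their WT sums were 320 to 550 CPM in CXCR6+ and 371 to 622 CPM in SLAMF6+ cells, but the list holds the deleted genes. Beyond Il17a and Il17f it went both ways. Ccr6 had 47.3 CPM in CXCR6+ DKO and 51.7 CPM in SLAMF6+ DKO, against 0.122 and 0 CPM on average in WT. Rora, in the same order, had 79.2 and 48.8 CPM, against 19.3 and 22.6 CPM. Il23r was lower, at 1.85 and 0.145 CPM, against 36.1 and 35.2 CPM. The part of other cells in the enzyme results was not tested.

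Across the 12 libraries, likeness between genes was measured as the root mean square difference of log2(CPM + 1) after each gene was centred on its own mean, over 5452 genes of at least 20 CPM on average. The libraries share their groups, so these distances describe the data and carry no test. Among the enzymes, Phgdh and Shmt2 had the closest profiles (0.184), followed by Psph and Tyms (0.208) and Phgdh and Mthfd1l (0.228), and Shmt1 and Mthfd1 the least alike (1.04). The non-members nearest to Phgdh were Pmm1 (0.136), Pfkl (0.141) and Hspa9 (0.143). Those nearest to Mthfd2 were Itpa (0.116), Cct5 (0.125) and Elp5 (0.128), and those nearest to Tyms were Ruvbl2 (0.171), Stoml2 (0.171) and Dut (0.173).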

How the data were processed

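RNA was measured in 12 libraries of 1000 sorted cells each. Per the labels' protocols, libraries followed a variant of SMART-Seq2 with Nextera XT tagging, read in pairs, which does not mark the strand. Expected counts in whole numbers, for 47359 gene symbols, are what the authors deposited. The submitters' processing notes name RSEM 1.3.3, STAR 2.7.7a and mm10. The annotation is not given in the sources used here. Such estimates share reads between near-identical copies; the pseudogene rows Phgdh-ps1 and Tyms-ps held at most 11 counts in any library.

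Groups came from the labels, and every column matched 1 sample. One fit of all 4 groups (edgeR 4.0.16, R 4.3.3; TMM, filterByExpr, quasi-likelihood test, Benjamini-Hochberg adjustment, threshold 0.05) gave all comparisons; common dispersion was 0.396 with 8 residual degrees of freedom. Standard errors follow from the fold change and the test statistic. CPM uses TMM-adjusted totals. Coordinates, exon lengths and GC content are from GENCODE M21 (GRCm38), which matched 41372 symbols (87.4%). Intervals at 95% are exact and cover counting error only. The fit was also run on simulated counts, set at a far smaller dispersion than that of these data. That run cannot show how the comparisons with a single DKO library perform here. Named genes are the 9 enzymes, the deleted and sort genes, up to 4 genes of each list with the smallest p in WT, and the 3 genes nearest in profile to Phgdh, Mthfd2 and Tyms; others are said to be chosen after their values were seen, and 1 gene of the lists is not reported here; the enzymes and lists were chosen with earlier results of these data known. Alternatives changed the scaling and test (DESeq2 1.42.0, limma-voom 3.58.1), the filter, the genes and libraries entering, GC and length offsets, the replicate block and the threshold.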

Additional observations from a re-analysis of the deposited data

Results flagged for a closer look

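In 2 of the 18 sets of 5 WT values, 1 per enzyme and subset, the library at one end stood far from the others by Dixon's criterion at the 95% level; chance flags about 1 in 20 such sets. Psph in SLAMF6+ WT replicate 4 was the highest of its group at 105.3 CPM, against 91.1 to 95.1 CPM in the other 4 libraries. Without that library the WT difference of Psph remained called. Tyms in SLAMF6+ WT replicate 2 was the lowest of its group at 68.65 CPM, against 90.3 to 98.5 CPM in the other 4. That library was also the shallowest of SLAMF6+ WT, at 8134987 counts, and the one of them that listed mt-Ts1 with counts; its Tyms level still lay above the 28.0 CPM of SLAMF6+ DKO.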

How the results depend on the processing

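In both subsets the falls of Phgdh, Psat1, Shmt1, Shmt2 and Mthfd1l in DKO kept their calls in all 21 alternatives, and their log2 values ran from -3.49 to -1.53. In CXCR6+ DKO cells Psph passed in 7 of the 21 and Tyms in 6, and Mthfd2 lost its call in 5 (threshold of 2-fold included). Over the WT comparison's 29 alternatives Mthfd1 lost its call in 20 and Shmt2 in 10. The 8 enzymes called in WT became 5 with a term for mt-Ts1, 2 within libraries with mt-Ts1 counts and 0 at 2-fold or more. The genes called in WT, 7179, became 3385 within libraries with mt-Ts1 at 0, 2413 within those with counts and 2841 at 2-fold; fewer samples or a stricter threshold enter there by construction. Within libraries with mt-Ts1 counts, 4235 genes were called in DKO against WT in SLAMF6+ cells and 1035 in the interaction. Leaving out single WT libraries or replicate numbers, the enzymes called in the interaction ranged from 0 to 1 (Psph).

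Keeping only genes of at least 10 CPM in 5 libraries moved the 8114 genes kept, by their median on the log2 scale. This move was 0.26 in the WT comparison, 0.30 in DKO against WT in SLAMF6+ cells and -0.27 in the interaction. Under it WT Shmt1 stood at 0.031, SLAMF6+ DKO Mthfd1 at 0.022, and the interaction at -0.195 (Shmt1), -0.219 (Shmt2) and -0.104 (Mthfd2). A fit of the WT groups alone moved the WT comparison by a median of 0.13 over 13508 genes. Other changes of sign among the enzymes: SLAMF6+ DKO Mthfd1 at 0.006 within libraries with mt-Ts1 counts, and interactions of Shmt2 at -0.014 (DESeq2 size factors; DESeq2's Wald test), -0.013 (mt-Ts1 term) and -0.122 (within counts), Mthfd2 at -0.132 (within counts) and Phgdh at 0.016 (no filter). Leaving out libraries, the interaction ran from -0.034 to 0.213 for Shmt1, from -0.013 to 0.137 for Shmt2 and from -0.084 to 0.042 for Phgdh. The cause of these changes was not tested.

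The sample descriptions give the same replicate numbers, after the letter m, to both WT subsets. Deviations of same-numbered libraries correlated at 0.12, 0.023, -0.1, 0.018 and -0.018 over 7407 genes. Whether a number marks a mouse sorted into both subsets is not stated, and these correlations cannot decide it. With the replicate number as a block, 8 enzymes and 6943 genes were called in WT and 0 enzymes and 1554 genes in the interaction; with the block and offsets for GC content and length these were 6 and 6066 in WT and 0 and 904 in the interaction. Among CXCR6+ WT libraries, replicate 4 alone correlated best with its own number. Replicate 1 did so with SLAMF6+ replicate 3 (0.176), and replicate 3 with SLAMF6+ replicate 2 (0.189). The block cannot be fitted for DKO against WT, whose libraries carry no shared number.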
